A study of Gossypium hirsutum with 6 samples.

Results

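Upland cotton has lines whose seeds carry no fiber, and the genes described here are those whose RNA was detected in the ovules of such a line but was listed at 0 in its fibered counterpart. They were chosen by their expression values: a gene was kept if it was listed at 0 FPKM (fragments normalized for transcript length and mapped reads) in all 3 libraries of Xu142 and at 0.5 FPKM or more in all 3 libraries of *Xu142fl*. The stretches Gh_D12G1550 to Gh_D12G1700 and Gh_A12G1425 to Gh_A12G1580, around the MML3 genes, were left out, and none of the 271 genes listed there met the limits. In all, 55 of the 65894 listed genes remained. Since the rule used the contrast between the lines, the levels of these genes are a description and were not tested.

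*Xu142fl*, the fibreless mutant, and Xu142, a *Gossypium hirsutum* cultivar with fiber, were both grown in the field. Within each line, ovules taken 3 days and 1 day ahead of anthesis (−3 and −1 DPA) were mixed, and 3 libraries were sequenced from total RNA per line, described by the study as biological replicates. How much of each stage entered a library was not given, so the stages cannot be told apart. No transgene or agent was used, and each line stands for 1 genotype. In ovules, which hold several tissues, fewer cells of a type and less RNA per cell cannot be told apart.

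Cotton fibers are single cells that grow out of the outer ovule epidermis around anthesis, and MYB-MIXTA-like (MML) transcription factors act in their initiation. *G. hirsutum* is an allotetraploid that carries an A and a D subgenome, so most genes have a close copy in the other subgenome. In the IDs used here, the letter and digits after Gh give the subgenome and chromosome, and the last number gives the order of the gene along it. Sca stands for a scaffold not placed on a chromosome, and BGI_novel for a gene that the study predicted from its own reads. Such predicted genes can be coding or noncoding transcripts outside the annotation. The IDs of the 55 genes are paired with no names in the sources used here, so no role is given for any of them.

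The line labels were checked on the MML genes before the levels were read. All 6 MML genes looked up (MML3, MML4, MML8 and MML9 copies) were lower in *Xu142fl* without overlap, and MML3 of the D subgenome, Gh_D12G1628, had 0.18, 0.37 and 0.28 FPKM in *Xu142fl*, against 61.49, 54.55 and 51.83 FPKM in Xu142. None of these, and none of the replication and phospholipid genes that the study lists by ID, was among the 55. The libraries had FPKM sums of 804997 to 844877. *Xu142fl* replicate 1 stood apart from replicates 2 and 3 (median absolute log2 difference of a gene 0.29 and 0.37, against 0.17 between replicates 2 and 3), and Xu142 replicate 2 from replicates 1 and 3 (0.27 and 0.23, against 0.14 between these). The difference between *Xu142fl* replicate 1 and Xu142 replicate 2 was 0.29.

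Most of the 55 genes were weakly expressed. Their mean in *Xu142fl* lay between 0.67 and 50.8 FPKM with a median of 2.84 FPKM, below the median of 7.59 FPKM over the 46336 genes listed at 0.5 FPKM or more in all *Xu142fl* libraries, called detected genes below. A mean of at least 1 FPKM was reached by 47 of them, of at least 5 FPKM by 16 and of at least 10 FPKM by 5. These 5 held 44.7% of the summed mean FPKM. The share of detected genes that met the rule was 0.424% at means of 0.5 to 1 FPKM (8 of 1885), 0.183% at 2 to 5 FPKM (19 of 10363) and 0.0250% at 10 to 50 FPKM (4 of 16009). FPKM holds no read count and its depth cannot be read from the values, and a value listed at 0 therefore has no interval here.

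The highest value belonged to Gh_D03G1708, with 58.26, 47.85 and 46.19 FPKM in the *Xu142fl* libraries. It was the only one of the 55 above 50 FPKM, and its neighbours by gene number on D03 will be described with the other placed genes. The next highest were both on unplaced scaffolds. Gh_Sca042919G01 had 26.23, 28.13 and 30.32 FPKM, and Gh_Sca013939G01 had 15.17, 17.71 and 20.42 FPKM in *Xu142fl*. Each is the only gene listed on its scaffold, so nothing can be said about what lies beside it.

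On the A subgenome, Gh_A11G1753 had 15.04, 14.25 and 13.02 FPKM in *Xu142fl* and varied little. Gh_A08G0780 had 8.53, 17.76 and 17.75 FPKM, with replicate 1 below the other two. Gh_A03G1407 had 8.87, 9.41 and 7.47 FPKM. Gh_A06G0373 was lower, with 3.56, 5.29 and 6.57 FPKM, and again lowest in replicate 1.

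On the D subgenome, Gh_D11G1472 was even among the *Xu142fl* libraries, with 5.38, 5.18 and 5.55 FPKM. Gh_D05G3631 had 3.76, 3.65 and 3.23 FPKM. Gh_D11G1047, on the same chromosome as Gh_D11G1472 but 425 gene numbers away, had 2.2, 3.91 and 4.42 FPKM. Gh_D12G2694, outside the stretch left out on D12, had 2.99, 3.20 and 4.07 FPKM. A further scaffold gene, Gh_Sca018101G01, had 6.05, 8.91 and 9.37 FPKM.

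Of the predicted new genes, none reached a mean of 10 FPKM. BGI_novel_G002044 led them with 7.23, 10.67 and 10.84 FPKM in *Xu142fl*, followed by BGI_novel_G005137 with 5.92, 10.43 and 11.04 FPKM. BGI_novel_G003431 had 4.88, 8.27 and 10.95 FPKM and BGI_novel_G003432, the next number, 3.93, 6.13 and 8.60 FPKM. All 4 were lowest in replicate 1. BGI_novel_G001329 had 4.69, 7.10 and 6.07 FPKM and BGI_novel_G001328 had 4.66, 5.54 and 7.02 FPKM, and both belong to the longest run of consecutive numbers described further on.

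**Figure D1:**
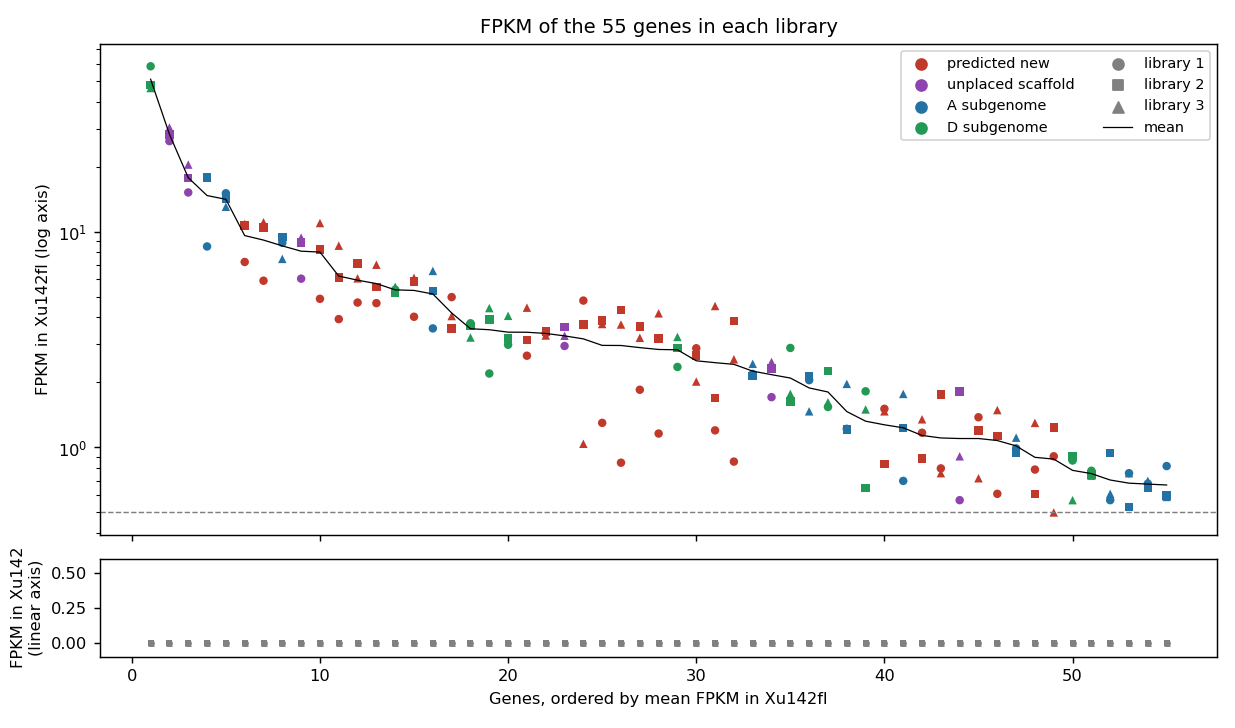
FPKM of the 55 genes in each library, ordered from left to right by the mean in *Xu142fl*. The upper panel has the 3 *Xu142fl* libraries (symbols) on a log axis, with colors for the class of gene, the mean as a line and 0.5 FPKM dashed; the lower panel has the Xu142 libraries on a linear axis, where the symbols coincide because every value is 0. Means run from 0.67 to 50.8 FPKM, and only 5 genes reach 10 FPKM.

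The genes just inside the limit were BGI_novel_G003501 with 0.91, 1.24 and 0.50 FPKM in *Xu142fl*, Gh_A05G3471 with 0.76, 0.53 and 0.76 FPKM, Gh_D12G2009 with 0.87, 0.91 and 0.57 FPKM and Gh_Sca006797G01 with 0.57, 1.82 and 0.91 FPKM. Just outside it were BGI_novel_G004825 with 0.71, 0.49 and 1.16 FPKM, Gh_A13G1116 with 0.46, 0.69 and 0.56 FPKM, BGI_novel_G004307 with 0.54, 0.45 and 1.46 FPKM and Gh_A11G0589 with 0.45, 0.87 and 0.85 FPKM. All 8 were listed at 0 in every Xu142 library, and the values on both sides of the limit overlapped. In Xu142, 2136 genes were listed at 0 in all 3 libraries, most of them under 0.5 FPKM in at least 1 *Xu142fl* library. Among detected genes outside the 2 stretches, 45831 were above 0 in every Xu142 library, 193 were listed at 0 in 1 library, 51 in 2 and 55 in all 3.

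Taken as a set, the 55 genes had a higher median spread among the *Xu142fl* libraries than detected genes did. Their median coefficient of variation was 22.2% (range 2.08% to 72.6%), against 14.5% for the detected genes. At means of 1 to 10 FPKM it was 28.2% in 42 of the 55, against 17.1% in 25475 detected genes, a difference that was not tested. Predicted new genes were 54.8% of these 42 but 13.6% of these detected genes. The spread was not compared within a class, and levels within this range were not matched. The steadiest of the 55 was BGI_novel_G003338 with 3.38, 3.44 and 3.30 FPKM. The most variable, BGI_novel_G000976, had 1.20, 1.69 and 4.52 FPKM. These examples, like those in the next sentences, were singled out after their values were seen.

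The highest library was at least 2 times the lowest in 17 of the 55 genes and at least 4 times in 3. BGI_novel_G001271 had 0.85, 4.34 and 3.71 FPKM in *Xu142fl* and BGI_novel_G002238 had 0.86, 3.86 and 2.56 FPKM, with replicate 1 lowest in both. BGI_novel_G003323 had 4.79, 3.72 and 1.04 FPKM and was lowest in replicate 3. Over the 55 genes, replicate 1 was the lowest library in 29 (52.7%), against 49.2% of detected genes, so a low replicate 1 was not confined to them. Their summed FPKM was 249.9, 291.3 and 300.9 in *Xu142fl* replicates 1, 2 and 3.

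Each library was also left aside in turn, so that the choice could be read in values it had not used. On 5 libraries, 61 to 77 genes were chosen, and the 55 that also met the rule in the sixth made up 71.4% to 90.2% of them. With *Xu142fl* replicate 1 left aside, 77 genes were chosen, of which 10 lay above 0 and under 0.5 FPKM in it and 12 were listed at 0. With *Xu142fl* replicates 2 and 3 left aside, 66 and 61 genes were chosen, and 6 and 4 of these were listed at 0 in the library not used.

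For Xu142, the question is how often a gene listed at 0 in the remaining Xu142 libraries was detected in the one left aside. Of 66 genes chosen without Xu142 replicate 1, 9 lay above 0 and under 0.5 FPKM in it and 2 at 0.5 FPKM or more. Without replicate 2, 73 were chosen, and 9 and 9 fell in these ranges. Without replicate 3, 77 were chosen, with 10 and 12 in these ranges, and the highest reached 6.42 FPKM. A listing at 0 in 2 Xu142 libraries was therefore followed by a value above 0 in the one left aside for 11 of 66, 18 of 73 and 22 of 77 genes. With both *Xu142fl* replicate 1 and Xu142 replicate 2 left out, 103 genes met the rule.

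**Figure D2:**
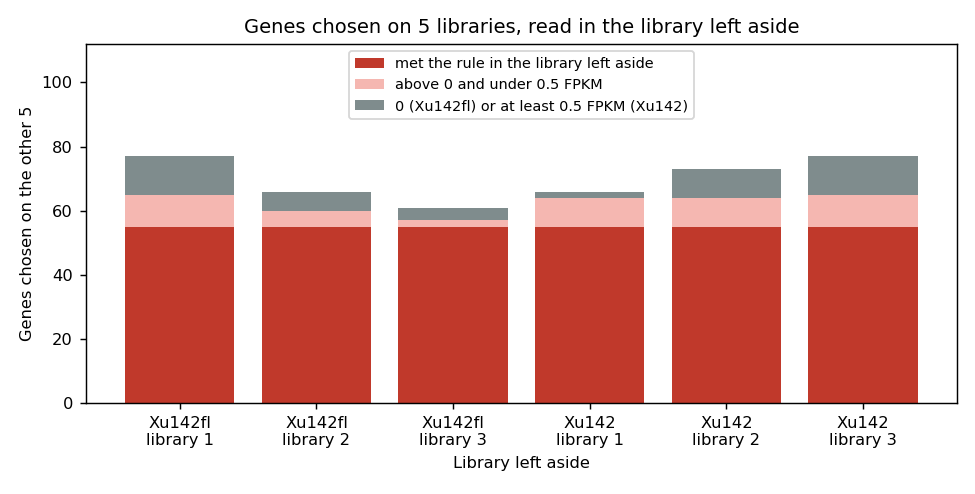
Number of genes (vertical axis) chosen on 5 libraries, by the library left aside (horizontal axis), split by the value in that library. The lowest segment, 55 genes in each bar, met the rule; the middle segment lay above 0 and under 0.5 FPKM; the top segment was at 0 (*Xu142fl*) or at 0.5 FPKM or more (Xu142), with 12 genes for *Xu142fl* library 1 and for Xu142 library 3.

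Predicted new genes made up a large share of the 55. These genes were predicted from the reads of the study itself, so their class is not independent of the libraries that the rule used. They numbered 25 (45.5%, 95% Wilson interval 33.0% to 58.5%), against 9.39% of detected genes and 8.42% of all listed genes. Genes on unplaced scaffolds numbered 6 (10.9%, 5.10% to 21.8%), against 1.88% of detected and 3.00% of all listed genes. The remaining 24 genes were placed on chromosomes, 13 on the A and 11 on the D subgenome. Intervals cover counting error only, and no test of the shares was made. They take genes as independent, which may not hold, since 8 of the 25 new genes stood in runs of close numbers.

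Read the other way, 0.574% of the 4353 detected new genes and 0.690% of the 870 detected scaffold genes met the rule, against 0.0584% of the 41113 detected genes placed on chromosomes. The difference in shares was also present at like level: of the genes with a mean of 1 to 10 FPKM in *Xu142fl*, 23 of 42 were new (54.8%), against 13.6% of detected genes. The level of the new genes was close to that of new genes at large, with a median of 2.97 FPKM against 2.88 FPKM over the detected new genes. The scaffold genes had a median of 5.70 FPKM, against 4.92 FPKM over detected scaffold genes. Placed genes had a median of 1.47 FPKM on the A and 2.83 FPKM on the D subgenome. Both lay below the median of 7.59 FPKM over all detected genes, of which 88.7% were placed. A median over detected placed genes alone was not computed.

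A large share of new genes was also found under the mirrored rule. Listed at 0 in all *Xu142fl* libraries and at 0.5 FPKM or more in all Xu142 libraries were 71 genes, of which 27 were new (38.0%, 27.6% to 49.7%), so the intervals of both sets overlapped. One of these 71 was on a scaffold (1.41%, 0.249% to 7.56%), against 6 of the 55. Genes listed at 0 in all 3 libraries of a line were 3092 in *Xu142fl* and 2136 in Xu142.

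**Figure D3:**
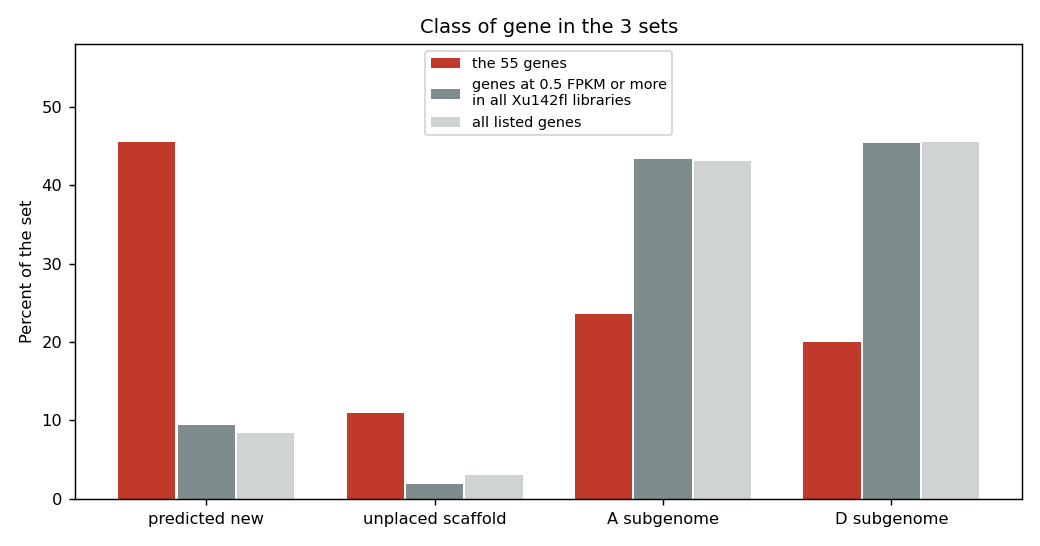
Percent of genes (vertical axis, from 0) in each class for the 55 genes, the 46336 genes at 0.5 FPKM or more in all *Xu142fl* libraries and all 65894 listed genes. Predicted new genes are 45.5% of the 55 and 9.39% of detected genes, and genes on unplaced scaffolds 10.9% and 1.88%.

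The subgenomes were represented to a like extent. Of the 24 placed genes, 45.8% were on the D subgenome (27.9% to 64.9%), against 51.2% of detected and 51.4% of all listed placed genes, which lie within the interval. They were spread over 17 of the 26 chromosomes, 9 of the A and 8 of the D subgenome. Chromosome A05 held 3 of them (Gh_A05G0249, Gh_A05G0765 and Gh_A05G3471), A03, A11, D08, D11 and D12 held 2 each, and 11 chromosomes held 1. The pair closest by gene number, Gh_D11G1047 and Gh_D11G1472, was 425 numbers apart, so none of the placed genes lay beside another of them. Among the scaffold genes, each was alone on its scaffold in the table.

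The genes next to the placed ones were then compared between the lines. The 24 placed genes had 87 neighbours within 2 gene numbers, and none of these was itself among the 55, so their values had no part in the choice. Of these, 77 averaged 0.1 FPKM or more and were tested with limma on the scale of log2(FPKM + 0.1), where fold changes of weakly expressed genes are understated. Adjustment (Benjamini-Hochberg) ran over all 56395 genes tested. Calls needed a 2-fold change with an adjusted p of 0.001 or less, and counts at 0.05 are set beside them. The study set the same limits but used another method, DEGseq, so the calls here are not those of the study. The exact permutation test of a single gene cannot go below p = 0.1 with 3 libraries against 3.

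Most neighbours changed less than 2-fold between the lines, but a smaller share of them did so than of all genes tested. The median log2 fold change (*Xu142fl* against Xu142) was 0.03 over the 77 and 0.01 over all genes tested, and 60 neighbours (77.9%) changed less than 2-fold, against 88.7% of all genes tested. With the limit of 0.001, 4 neighbours were called higher in *Xu142fl* (5.19%, against 0.195% of all genes tested) and 2 lower (2.60%, against 0.555%). At 0.05, 10 were higher (13%, against 1.67%), beside 7 of the 24 genes, and 4 lower (5.19%, against 4.47%). Without overlap between the lines, 22 were higher (28.6%, against 15.6%) and 14 lower (18.2%, against 19.5%).

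The count of higher neighbours at 0.001 fell whichever library was left out. Such fits have fewer libraries from which to estimate error, so a lost call cannot be tied to the library left out. In limma fits without 1 library, 2 neighbours were higher without *Xu142fl* replicate 1 or without Xu142 replicate 1 or 2, 1 without Xu142 replicate 3, and 0 without *Xu142fl* replicate 2 or 3, where 18 and 19 were higher at an unadjusted p under 0.05. The count at 0.05 was 6 without *Xu142fl* replicate 2 and 7 to 9 without any other library, and 11 without both *Xu142fl* replicate 1 and Xu142 replicate 2. The count of lower neighbours at 0.001 was 0 without *Xu142fl* replicate 2, Xu142 replicate 1 or Xu142 replicate 3. At an unadjusted limma p under 0.05, these fits had 11, 9 and 9 lower neighbours. At an adjusted p of 0.05, the count was 2 when any 1 of these 3 libraries was left out. The share of all genes at the unadjusted limit was not computed, so nothing is read from unadjusted counts here or below.

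Neighbours 3 to 5 gene numbers away were counted separately. Of 108 tested, limma called 0 higher and 2 lower (1.85%) at 0.001, against 0.195% and 0.555% of all genes tested. At 0.05, 2 were higher (1.85%, against 1.67%) and 8 lower (7.41%, against 4.47%). Without overlap between the lines, 15 were higher (13.9%, against 15.6% of all genes tested) and 29 lower (26.9%, against 19.5%). At an unadjusted limma p under 0.05, 14 were higher and 26 lower, again without a share of all genes to set beside them. The difference between the distances was not tested.

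**Figure D4:**
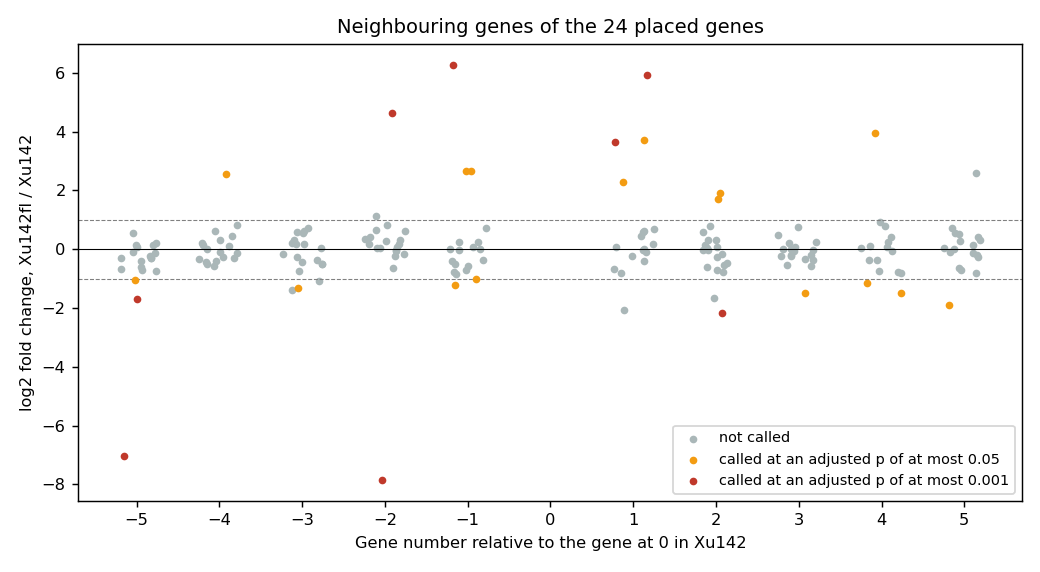
Log2 fold change (*Xu142fl* against Xu142, on the scale of log2(FPKM + 0.1)) of the genes up to 5 gene numbers from each of the 24 placed genes, by relative gene number; points are single genes, spread sideways so that they can be seen, with dashed lines at 2-fold. The 4 genes called higher and 2 of the 4 called lower at an adjusted p of at most 0.001 lie within 2 numbers, and most points lie between the dashed lines.

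Among the called neighbours, Gh_A06G0372 had 13.35, 18.70 and 19.18 FPKM in *Xu142fl*, against 0.19, 0.14 and 0.05 FPKM in Xu142. It is next to Gh_A06G0373, described above, so that 2 adjacent numbers on A06 were nearly absent in Xu142. The log2 fold change was 6.28 (standard error 0.29, limma, Benjamini-Hochberg adjusted p = 9.4e-05). On the other side, Gh_A06G0374 had 40.59, 34.38 and 33.59 FPKM in *Xu142fl*, against 37.28, 41.35 and 37.95 FPKM in Xu142, and the lines overlapped.

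On A10, Gh_A10G2113 had 6.07, 8.71 and 8.62 FPKM in *Xu142fl*, against 0.07, 0 and 0.02 FPKM in Xu142 (log2 fold change 5.94, standard error 0.29, limma adjusted p = 0.00011). It adjoins Gh_A10G2112, one of the weakest of the 55, with 0.57, 0.94 and 0.61 FPKM in *Xu142fl*. On the FPKM scale, the neighbour was thus far above Gh_A10G2112 in every *Xu142fl* library.

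On A05, the neighbours of Gh_A05G3471 changed in opposite directions. Gh_A05G3472 had 1.49, 1.62 and 1.93 FPKM in *Xu142fl*, against 0.04 FPKM in each Xu142 library (3.66, standard error 0.27, limma adjusted p = 0.00056). Gh_A05G3473 had 7.78, 8.18 and 7.52 FPKM in *Xu142fl*, against 34.00, 39.90 and 33.47 FPKM in Xu142 (−2.18, standard error 0.10, limma adjusted p = 9.1e-05). On the lower side, Gh_A05G3470 had 0.25, 0.63 and 0.24 FPKM in *Xu142fl*, against 0.51, 0.79 and 0.60 FPKM in Xu142, with overlap.

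On D06, the gene Gh_D06G0113, with 1.82, 0.65 and 1.5 FPKM in *Xu142fl*, lay among neighbours that were all higher. Gh_D06G0111 had 16.02, 20.40 and 23.37 FPKM in *Xu142fl*, against 1.22, 0.41 and 0.64 FPKM in Xu142 (4.64, standard error 0.35, limma adjusted p = 0.00061). Gh_D06G0112 had 0.73, 1.69 and 1.53 FPKM in *Xu142fl*, against 0, 0.14 and 0.29 FPKM in Xu142, and was called only at 0.05 (limma adjusted p = 0.026). Gh_D06G0115 had 2.99, 3.16 and 2.75 FPKM in *Xu142fl*, against 0.97, 0.50 and 0.76 FPKM in Xu142 (limma adjusted p = 0.0052). All 3 listed neighbours within 2 numbers were thus higher.

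On A09, Gh_A09G1979 had 0.99, 0.95 and 1.11 FPKM in *Xu142fl* and lay near a gene that was almost lost there. Gh_A09G1977 had 1.19, 0.41 and 0.49 FPKM in *Xu142fl*, against 140.65, 216.01 and 158.20 FPKM in Xu142 (−7.85, standard error 0.35, limma adjusted p = 8.6e-05). Between them, Gh_A09G1978 had 0.97, 1.30 and 0.35 FPKM in *Xu142fl*, against 0, 0.17 and 0 FPKM in Xu142, and was higher at 0.05 (limma adjusted p = 0.030). Gh_A09G1980, the next number after Gh_A09G1979, was under 0.3 FPKM in all 6 libraries.

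Of these 6 neighbours, all kept their direction and an adjusted p of at most 0.05 in every alternative run on them, but each lost its call at 0.001 in some. Gh_D06G0111 was called in 4 of 14 alternatives and Gh_A05G3472 in 5 of 13, and both lost the call whichever of the 6 libraries was left out. The highest adjusted p over the alternatives was 0.0090 for Gh_D06G0111 and 0.012 for Gh_A05G3472. Gh_A10G2113 was called in 9 of 14, and Gh_A05G3473, Gh_A06G0372 and Gh_A09G1977 in 10 of 14 each, with highest adjusted p values of 0.0033 to 0.0050.

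At 0.05, Gh_A03G1407 was followed by further genes that were higher in *Xu142fl*. Gh_A03G1408 had 34.82, 23.18 and 32.18 FPKM in *Xu142fl*, against 4.08, 2.29 and 1.09 FPKM in Xu142 (3.70, standard error 0.43, limma adjusted p = 0.0031). Gh_A03G1409 had 6.02, 7.48 and 8.13 FPKM in *Xu142fl*, against 2.45, 3.54 and 1.07 FPKM in Xu142 (limma adjusted p = 0.034). Gh_A03G1411, 4 numbers away, had 17.88, 14.57 and 19.14 FPKM in *Xu142fl*, against 1.83, 1.25 and 0.43 FPKM in Xu142 (limma adjusted p = 0.0028). Before it, Gh_A03G1405 had 10.78, 10.67 and 11.19 FPKM in *Xu142fl*, against 8.38, 9.59 and 7.91 FPKM in Xu142, and was not called. These genes, named here after their values were seen, were above 0 in all 3 Xu142 libraries, unlike Gh_A03G1407.

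Around Gh_D03G1708, the most abundant of the 55, no neighbour was called. Gh_D03G1707 had 7.77, 7.57 and 6.27 FPKM in *Xu142fl*, against 9.59, 11.45 and 9.88 FPKM in Xu142, lower without overlap. Gh_D03G1709 had 4.71, 2.02 and 1.59 FPKM in *Xu142fl*, against 1.70, 1.63 and 1.26 FPKM in Xu142, with overlap. Likewise Gh_D11G1046 and Gh_D11G1048, on either side of Gh_D11G1047, overlapped between the lines, with 8.66, 10.17 and 9.90 FPKM in *Xu142fl* against 10.79, 8.70 and 9.96 FPKM in Xu142 for Gh_D11G1046. Gh_D11G1047 thus lay between neighbours whose levels overlapped between the lines.

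**Figure D5:**
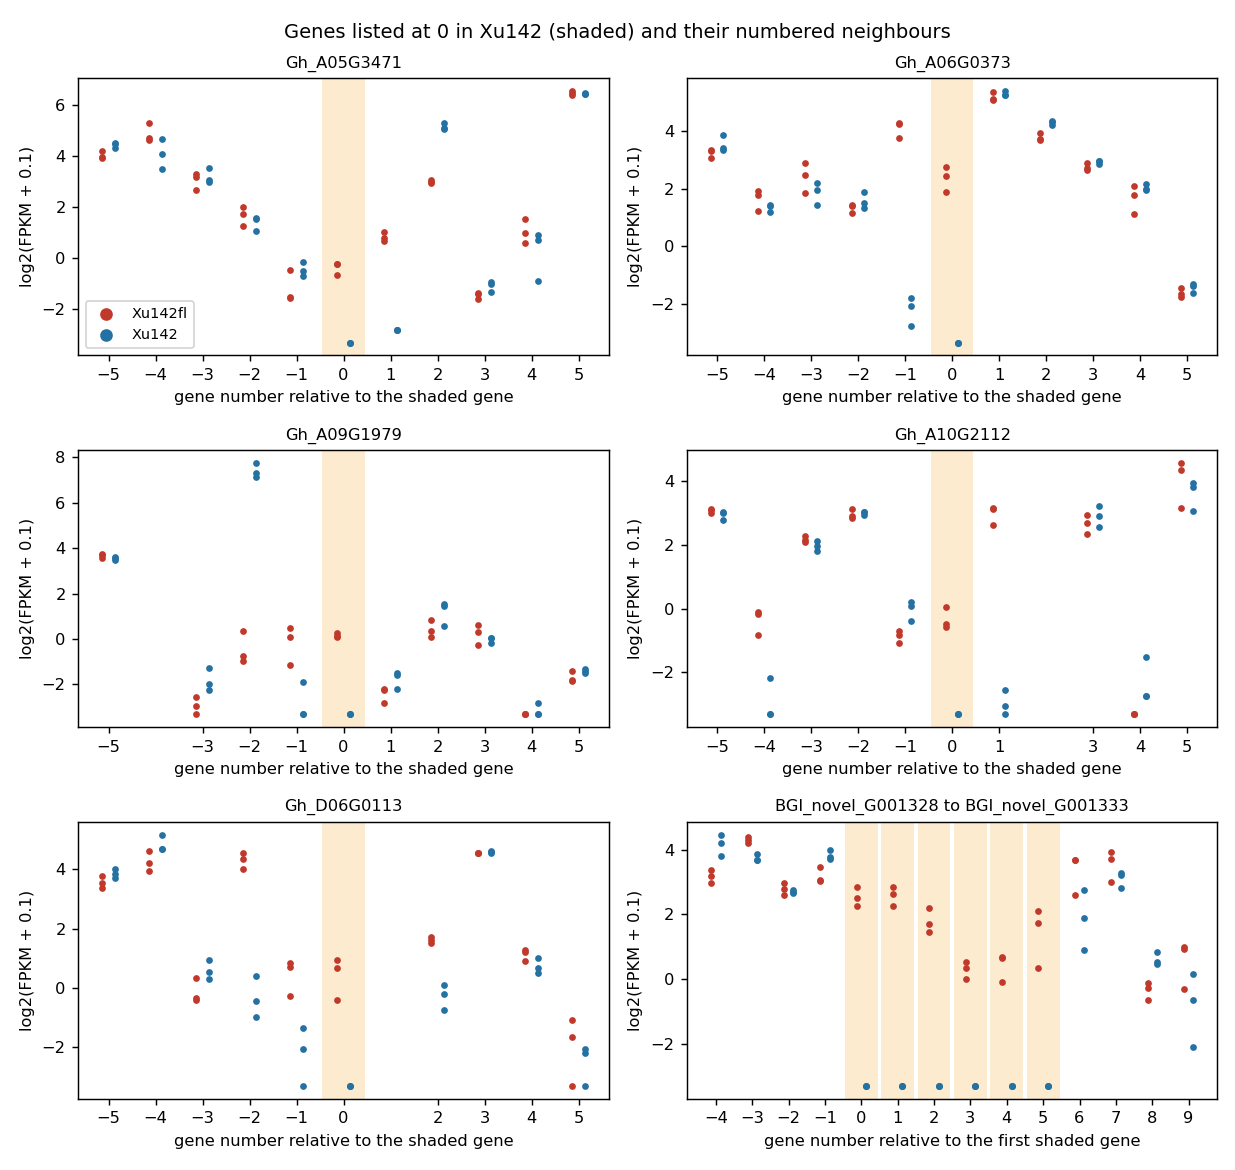
Levels as log2(FPKM + 0.1) in each library (*Xu142fl* red, left of Xu142 blue) of 5 placed genes and of the run BGI_novel_G001328 to BGI_novel_G001333 (shaded) and of the listed genes up to 5 numbers away for the placed genes and 4 for the run; the lowest possible level is that of 0 FPKM. Beside Gh_A05G3471, Gh_A06G0373, Gh_A09G1979 and Gh_A10G2112, 1 adjoining gene is lower in Xu142, under 0.2 FPKM in its libraries.

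Predicted new genes carry no chromosome in their IDs, and whether their numbers follow position is not given in the sources used here. By number, 8 of the 25 (32%) stood beside another of them, at most 2 numbers apart. The longest run was 6 consecutive numbers, BGI_novel_G001328 to BGI_novel_G001333. The values of BGI_novel_G001328 and BGI_novel_G001329, given above, were its highest. BGI_novel_G001330 had 2.66, 3.15 and 4.44 FPKM in *Xu142fl* and BGI_novel_G001331 had 1.17, 0.89 and 1.35 FPKM. BGI_novel_G001332 had 1.51, 0.84 and 1.47 FPKM and BGI_novel_G001333 had 1.16, 3.19 and 4.18 FPKM. All 6 were listed at 0 in every Xu142 library.

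The numbers on both sides of that run were present in both lines. BGI_novel_G001327 had 10.82, 8.07 and 8.18 FPKM in *Xu142fl*, against 15.88, 13.11 and 13.63 FPKM in Xu142, a change under 2-fold. BGI_novel_G001334 had 5.94, 12.73 and 12.65 FPKM in *Xu142fl*, against 3.57, 1.76 and 6.66 FPKM in Xu142, with overlap. For the second run, of BGI_novel_G003431 and BGI_novel_G003432, the number before it, BGI_novel_G003430, had 21.13, 18.31 and 20.05 FPKM in *Xu142fl*, against 21.78, 26.32 and 20.10 FPKM in Xu142. The number after it, BGI_novel_G003433, had 3.78, 4.93 and 4.81 FPKM in *Xu142fl*, against 0.20, 0.52 and 0.23 FPKM in Xu142 (log2 fold change 3.54, standard error 0.32, limma adjusted p = 0.0012), which passed the limit of 0.05 but not that of 0.001.

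Reads that fit more than 1 gene are shared out by RSEM, so a value of 0 beside a near-identical copy elsewhere is uncertain, and whether reads of the 55 genes were assigned to copies in Xu142 was not tested. In the limma fit, 33 of the 55 were called higher at 0.001 and all 55 at 0.05, against the 0.195% and 1.67% of all genes tested given above, and since the rule used this contrast nothing is read from these counts.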

How the data were processed

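RNA of *Xu142fl* and Xu142 ovules (3 libraries each) was sequenced by the authors, aligned to the TM-1 genome and quantified with RSEM, with HISAT2 2.1.0 also named in the submitters' processing notes. The authors deposited FPKM, normalized for transcript length and mapped reads, with 2 decimals. The study states the reads of each library, but FPKM gives no read count per gene, so counting error was not estimated. No pair of libraries shared more than 1.91% identical non-zero values. The use of strand in counting was not given in the sources used here, so overlapping and antisense genes cannot be told apart.

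The 56395 genes that averaged 0.1 FPKM or more were fitted on log2(FPKM + 0.1) with limma 3.58.1 (trend; R 4.3.3) and adjusted by Benjamini-Hochberg. The fit was checked on simulated data for genes averaging 1 FPKM or more, all with the same spread. That check does not cover weaker genes or genes of unequal spread. Python 3.11.15, pandas 2.3.3, numpy 2.4.6 and matplotlib 3.10.9 were used. Neighbours were non-members within 2 gene numbers of a placed gene, outside the MML3 stretches. The text names the 12 annotated and 6 new genes highest in *Xu142fl*, those at the limit, runs, and neighbours called at 0.001; others are said to be chosen later. The members and lists were chosen with earlier results of these data known. A share in runs for detected genes was left out, since nearly all of them have a detected gene beside them by number. Alternatives were other limits, pseudocounts, filters, scaling, distances, each library left out and a replicate block. The RefSeq gene table (Gossypium_hirsutum_v2.1) matched 0 IDs, so no names, coordinates or sequences are given.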

Additional observations from a re-analysis of the deposited data

How the results depend on the processing

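The number of genes meeting the rule was 83 with a minimum of 0.25 FPKM, 36 with a minimum of 1 FPKM and 61 to 77 without 1 library. Added after seeing the data, leaving out both *Xu142fl* replicate 1 and Xu142 replicate 2 gave 103. The shares of new, scaffold and D subgenome genes stayed within their intervals in all 11 alternatives each. Higher neighbours at 0.001 (4) were 2 with a pseudocount of 0.01, 1 without both of those libraries, 10 at an adjusted p of 0.05 and 0 to 2 without 1 library. Lower neighbours (2) were 0 at 1 gene number (9 at an unadjusted limma p under 0.05), 4 up to 5 numbers, 4 at 0.05 and 0 to 2 without 1 library. At 0.05, 10 higher became 6 to 9 and 4 lower became 2 to 4 without 1 library, and the lower were 2 at 1 gene number and 12 up to 5 numbers. Their median log2 fold change (0.035) was 0.072 among genes averaging 1 FPKM or more, −0.027 up to 5 numbers and 0.031 to 0.097 without 1 library. The cause was not tested. A replicate block left 0 higher and 0 lower limma calls at 0.001 (16 and 10 at an unadjusted p under 0.05) and 9 and 3 at 0.05. Whether same-numbered libraries were collected or processed together is not given in the sources used here. Deviations of same-numbered libraries correlated at −0.25, −0.23 and 0.14, and 0 of 3 *Xu142fl* libraries correlated best with its own number. With 3 libraries per line, these values cannot exclude pairing. Without counts, no upper limit was estimated for the level of a gene listed at 0 in Xu142.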

Other observations

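For the numbered neighbours of the predicted new genes, it is unknown whether their numbers follow position. Of 74 tested within 2 numbers, limma called 2 higher (2.70%, against 0.195% of all genes tested) and 1 lower (1.35%, against 0.555%) at 0.001. At 0.05, 13 were higher (17.6%, against 1.67%) and 7 lower (9.46%, against 4.47%). BGI_novel_G002042, near BGI_novel_G002044, had 25.73, 26.67 and 30.11 FPKM in *Xu142fl*, against 0, 0.05 and 0.05 FPKM in Xu142. BGI_novel_G001895, near BGI_novel_G001893, had 2.62, 4.52 and 4.78 FPKM in *Xu142fl*, against 0.16, 0.26 and 0.20 FPKM in Xu142. BGI_novel_G005526, near BGI_novel_G005528, was listed at 0 in all *Xu142fl* libraries and had 1.62, 1.5 and 1.55 FPKM in Xu142.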
